A study of Mus musculus with 22 samples.

Results

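The 10 genes described here encode the lipases of stored fat, the proteins that switch those lipases on or off, and the proteins that coat the lipid droplet. They are *Pnpla2*, *Lipe*, *Mgll*, *Abhd5*, *G0s2*, *Plin1*, *Plin2*, *Plin4*, *Plin5* and *Cidec*, taken by name and matched to GENCODE mouse symbols. All 10 were found among the 55487 gene identifiers counted, and all 10 passed the filter on low counts in both cohorts, where 17869 and 18899 genes were tested. The counts come from mRNA sequencing of mouse brown adipose tissue (BAT), the thermogenic fat depot, in 22 libraries. CPEB2 is an RNA-binding protein that regulates translation, and the study asked how its loss alters BAT and whether PRDM16, a transcriptional regulator of brown fat identity, offsets that loss.

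The untreated cohort held 5 CPEB2-WT and 5 CPEB2-KO libraries, from BAT taken at 21 to 25 weeks of age. Mice of the untreated cohort were briefly food-deprived before collection, whereas feeding in the AAV cohort is not stated. The AAV cohort crossed genotype with virus, with 3 libraries of either genotype for the GFP and for the PRDM16 virus. In it, virus at about 20000000000 vector genomes in 30 µl was injected at 16 weeks in portions of 10 µl, and BAT was taken 9 weeks later, at 25 weeks. The labels give all mice as males on a chow diet. The knockout is global, on a C57BL/6 background and from heterozygous crosses, so it is not restricted to adipocytes. AAV-PRDM16 delivered a flag-tagged coding region of PRDM16 and AAV-GFP served as the control virus, so all 4 groups of the AAV cohort carried a virus. Each group held as many mice as libraries, and the p-values measure the spread between these mice.

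Fat in the droplet is broken down in sequence. ATGL (*Pnpla2*) removes the first fatty acid from triglyceride, hormone-sensitive lipase (*Lipe*) the next, and monoglyceride lipase (*Mgll*) the last. CGI-58 (*Abhd5*) activates ATGL and G0S2 inhibits it, while perilipin 1 (*Plin1*) holds CGI-58 at the droplet until adrenergic signalling releases it. In brown adipocytes the fatty acids set free both fuel the mitochondria and activate UCP1, and the other perilipins and *Cidec* shape how droplets are coated, enlarged and tied to mitochondria.

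The genes lie on 6 chromosomes of GRCm38. *Pnpla2* (chr7:141455198-141460743, plus strand), *Lipe* (chr7:25379527-25398710, minus strand) and *Plin1* (chr7:79720218-79732903, minus strand) share chromosome 7 but are far apart. *Mgll* (chr6:88724412-88828360, plus strand) and *Cidec* (chr6:113424634-113435760, minus strand) share chromosome 6. *Plin4* (chr17:56100591-56109803) and *Plin5* (chr17:56111601-56117596) are neighbours on the minus strand of chromosome 17. *Abhd5* (chr9:122351608-122381524, plus strand), *G0s2* (chr1:193272161-193273217, minus strand) and *Plin2* (chr4:86648386-86670060, minus strand) stand alone. An annotated antisense gene covers 15.6% of the exonic bases of *Lipe*, 15.95% of those of *Abhd5* and 3.29% of those of *Mgll*. Whether the counting used strand is not given in the sources used here, so counts of these genes may include antisense reads.

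CPEB proteins are known to bind U-rich cytoplasmic polyadenylation elements in 3′ UTRs, so the annotated 3′ UTRs of the 10 genes (1 transcript per gene, GENCODE M21) were searched for TTTTAT and TTTTAAT on the sense strand. TTTTAT was present in *G0s2*, *Abhd5* and *Plin1*, and TTTTAAT in 0 of the 10. The share of 3 of 10 genes (30.0%) compares with 49.4% of 21022 protein-coding 3′ UTRs, and with 54.2% of the 12581 whose length lies within the range of the 10. The matches are shown with their flanks because CPEB2 is the protein under study. Other U-rich sequences and other transcripts of these genes were not searched. They run 5′ to 3′ on the transcript strand, with T for U and the motif in capitals.
*G0s2* site 1, chr1:193272228-193272253 minus strand: gagacaggctTTTTATacagttattt
*G0s2* site 2, chr1:193272214-193272239 minus strand: atacagttatTTTTATtgttattatt
*G0s2* site 3, chr1:193272161-193272181 minus strand: aataaaaaccTTTTATactct
*Abhd5* site 1, chr9:122380052-122380077 plus strand: acccaagtatTTTTATgtaaaaagat
*Abhd5* site 2, chr9:122380196-122380221 plus strand: tgttttcctgTTTTATgatcaaggcc
*Abhd5* site 3, chr9:122380584-122380609 plus strand: ttgtggttatTTTTATtgaatattat
*Plin1*, chr7:79720645-79720670 minus strand: ctcagtgcatTTTTATcgcggagctg

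The 3 motifs of *G0s2* end 77, 63 and 5 bases before the annotated end of a 3′ UTR of only 302 bases, and the first 2 lie so close that their flanks overlap. Those of *Abhd5* end 1457, 1313 and 925 bases before the end of a 3′ UTR of 1922 bases, and that of *Plin1* 437 bases before the end of 1203 bases. The 3′ UTRs of *Pnpla2*, *Lipe*, *Plin2* and *Plin5* are 426 to 468 bases long and hold no match, and neither do those of *Mgll*, *Plin4* and *Cidec*, of 928 to 2584 bases. A match is a string of letters in a 3′ UTR and binding was not measured here.

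Libraries held 55320927 to 162721202 counts in the untreated and 61636889 to 143005309 in the AAV cohort. Before scaling, the 10 genes together took 0.667% to 0.755% of them in untreated WT and 0.824% to 1.595% in untreated KO libraries. In the AAV cohort they took 0.675% to 0.915%. Levels are given in CPM, a gene's counts relative to the scaled total of its library. *Cpeb2* was at 10.47 to 13.96 CPM in the 6 WT and 4.33 to 5.549 CPM in the 6 KO libraries of the AAV cohort. In the untreated cohort it was at 7.695 to 14.33 CPM in WT and 2.105 to 5.778 CPM in 4 KO libraries, but at 11.66 CPM in the library labelled KO replicate 1, so its genotype rests on the label alone. Without that library 8 of the 10 log2FC (KO over WT) of the untreated comparison stayed above 0, with a median of 0.43 against 0.015 for all genes. With all libraries 51.8% of all genes were above 0. *Prdm16* was at 45.85 to 127.8 CPM in the AAV-PRDM16 and 23.93 to 40.22 CPM in the AAV-GFP libraries. Replicates 1 to 3 of WT + AAV-PRDM16 held 121.9, 118.9 and 45.85 CPM, the last close to replicate 2 of WT + AAV-GFP (40.22 CPM). Skeletal muscle markers (10 genes, summed RPKM) stood apart in untreated WT replicate 3 (1126), the library labelled KO replicate 1 (1939), KO replicate 2 (2507) and KO replicate 5 (495.7), against 3.043 to 55.01 in the other 6. They summed to at most 32.39 RPKM in the AAV cohort, where up to 8 of the 10 were at 0 in a library. Although the labels give males, Y-linked transcripts were absent (at most 1.165 CPM) and *Xist* present (at least 104.3 CPM) in 6 untreated libraries, WT replicates 3 and 5 and KO replicates 1, 3, 4 and 5. Two-sided signals were seen in untreated WT replicate 4 (Y-linked 115.7 CPM, *Xist* 14.02 CPM) and KO replicate 2 (77.07 and 1.651 CPM). *Xist* was at 0.08759 and 0.03105 CPM in WT replicates 1 and 2. Brown adipocyte markers (10 genes) summed to at least 2506 RPKM in every library.

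On the scale of level per length (RPKM, which is CPM per kilobase of annotated exons), 9 of the 10 genes ranked 35 to 315 in the untreated and 29 to 223 in the AAV cohort among protein-coding genes tested. *Pnpla2* led with a mean level of 829.3 RPKM in the untreated cohort, rank 35 of 14322, and 678.3 RPKM in the AAV cohort, rank 29 of 14486. *G0s2*, its inhibitor, followed at 597.5 RPKM in untreated BAT, and *Cidec*, which promotes the enlargement of droplets, at 531.8 RPKM. *Abhd5*, the activator of ATGL, stood far below its partners at 11.5 RPKM (rank 2151) and 12.7 RPKM (rank 1830). The other genes lay between 89.6 and 273.5 RPKM in the untreated cohort, with *Plin1* and *Lipe* at the top and *Plin4* at the bottom.

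**Figure D1:**
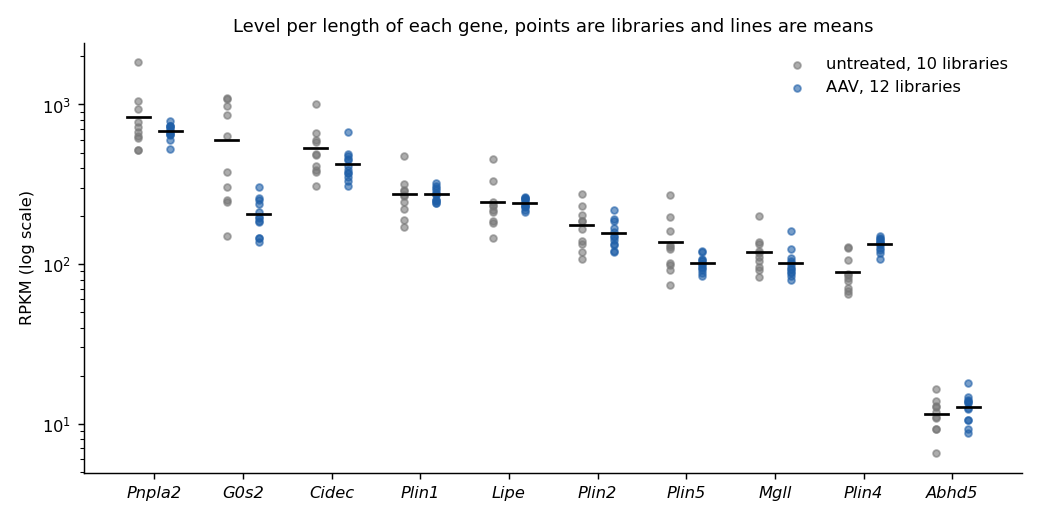
Level per length of the 10 genes. Each point is 1 library (untreated in grey, AAV in blue), lines are cohort means, and the vertical axis is RPKM on a log scale. *Pnpla2* stood highest and *Abhd5*, at means of 11.5 and 12.7 RPKM, below all others. The cohorts were scaled separately.

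Within groups of the AAV cohort the 10 genes ranged widely in how much they varied between libraries. The within-group SD of log2 CPM was 0.073 for *Plin1*, 0.091 for *Pnpla2* and 0.099 for *Lipe*, which placed them at percentiles 1.4, 4 and 5.8 of all tested genes, whose median was 0.305. It was 0.185 for *Mgll* (percentile 29.4) and 0.298 for *Abhd5* (percentile 49.1). *G0s2* was the most variable of the 10, with an SD of 0.413 in the AAV cohort and 1.031 in the untreated cohort. The other 9 had SDs of 0.363 to 0.517 in the untreated cohort, all below the median of 0.595 for all genes.

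In untreated BAT none of the 10 genes differed between KO and WT by edgeR's quasi-likelihood test at a false discovery rate (FDR) of 0.05, and 0 of the 17869 genes tested did (0% higher and 0% lower). The fitted log2FC (KO over WT) was above 0 for 8 of the 10 genes, against 51.8% of all genes, with a median of 0.37 against 0.04. This median was 0.17 without KO replicate 5 and 0.57 without KO replicate 2. *Plin5* was the 1 gene with an unadjusted p under 0.05, against 4.99% of all genes on the higher and 10.9% on the lower side, and DESeq2 gave 2 such genes and 0 at the FDR. With single libraries left out this count ran from 0 to 4, the latter without KO replicate 2. No gene had all KO libraries above or below all WT libraries, against 0.492% higher and 0.907% lower among all genes, and none passed the study's thresholds of 2-fold and an FDR of 0.5 (6.04% of genes higher, 4.72% lower).

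Among the lipases, *Pnpla2* was at 1916, 2343, 1873, 1556 and 2193 CPM in WT replicates 1 to 5. In KO replicates 1 to 5 it was at 2035, 1563, 2822, 3189 and 5556 CPM. KO replicates 3 to 5 lay above every WT library, and KO replicate 2 and the library labelled KO replicate 1 within the WT range. The difference of 0.62 ± 0.34 (log2FC ± SE, edgeR FDR 0.354, n = 5 per group) was 0.28 when KO replicate 5 was left out.

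*Lipe* was at 1389, 1366, 1097, 1239 and 1061 CPM in WT and 1279, 853.5, 1962, 1444 and 2677 CPM in KO replicates 1 to 5, with a log2FC of 0.42 ± 0.31 (edgeR FDR 0.460). *Mgll* was at 419.4 to 681.8 CPM in WT and 463.5 to 1020 CPM in KO, with a log2FC of 0.27 ± 0.27 (edgeR FDR 0.579). Without KO replicate 5 the log2FC was 0.17 for *Lipe* and 0.07 for *Mgll*. In all 3 lipases KO replicate 5 was the highest library and KO replicate 2 was the lowest or second lowest.

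For the regulators of ATGL the log2FC differed in sign, above 0 for the inhibitor *G0s2* and below 0 for the activator *Abhd5*, neither at the FDR. *G0s2* was at 218.4, 131.4, 552.9, 264 and 853.1 CPM in WT and at 213.1, 327.5, 951.9, 752.3 and 939.7 CPM in KO replicates 1 to 5. WT replicate 5 lay above 3 of the 5 KO libraries, and the log2FC was 0.66 ± 0.54 (edgeR FDR 0.502). It was 1.13 without WT replicate 5, 0.43 without WT replicate 2 and 0.27 with Y-linked transcripts as a term, all with edgeR FDR values above 0.05. *Abhd5* was at 54.83 to 97.47 CPM in WT and 38.78 to 82.62 CPM in KO, with a log2FC of -0.20 ± 0.25 (edgeR FDR 0.673), and the log2FC was 0.02 without the 4 libraries that held muscle markers, a choice made after seeing the data.

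*Plin5*, which links droplets to mitochondria, was at 205.3, 153.8, 260.7, 211.2 and 267.7 CPM in WT replicates 1 to 5. In KO replicates 1 to 5 it was at 273.5, 191.6, 337.3, 410.5 and 563.6 CPM. All KO libraries but replicate 2 lay above every WT library, and the log2FC was 0.69 ± 0.30 (edgeR unadjusted p 0.0402, FDR 0.309). When Y-linked transcripts entered the model as a term, it was 0.38 (edgeR FDR 0.603).

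*Plin1* was at 875.7 to 1327 CPM in WT and 798.7 to 2203 CPM in KO (log2FC 0.33 ± 0.29, edgeR FDR 0.531). *Plin2*, the coat protein found in most cell types, was at 417.7 to 654.7 CPM in WT and 375.3 to 964.9 CPM in KO (0.26 ± 0.29, edgeR FDR 0.633). The median KO library lay above every WT library for both, at 1361 CPM for *Plin1* and 717.6 CPM for *Plin2*. Without KO replicate 5 the log2FC of *Plin1* was 0.11.

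*Plin4*, another perilipin of adipocytes, was at 727.1, 742.8, 374.9, 503.4 and 411 CPM in WT and at 491.8, 612.7, 452.4, 389 and 470.1 CPM in KO. WT replicates 1 and 2 were the 2 highest of the 10 libraries, and the log2FC of -0.19 ± 0.27 (edgeR FDR 0.699) turned to 0.23 when both were left out. *Cidec* was at 700.4 to 1110 CPM in WT and 568.6 to 1878 CPM in KO, with a log2FC of 0.44 ± 0.32 (edgeR FDR 0.453), or 0.18 without KO replicate 5.

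**Figure D2:**
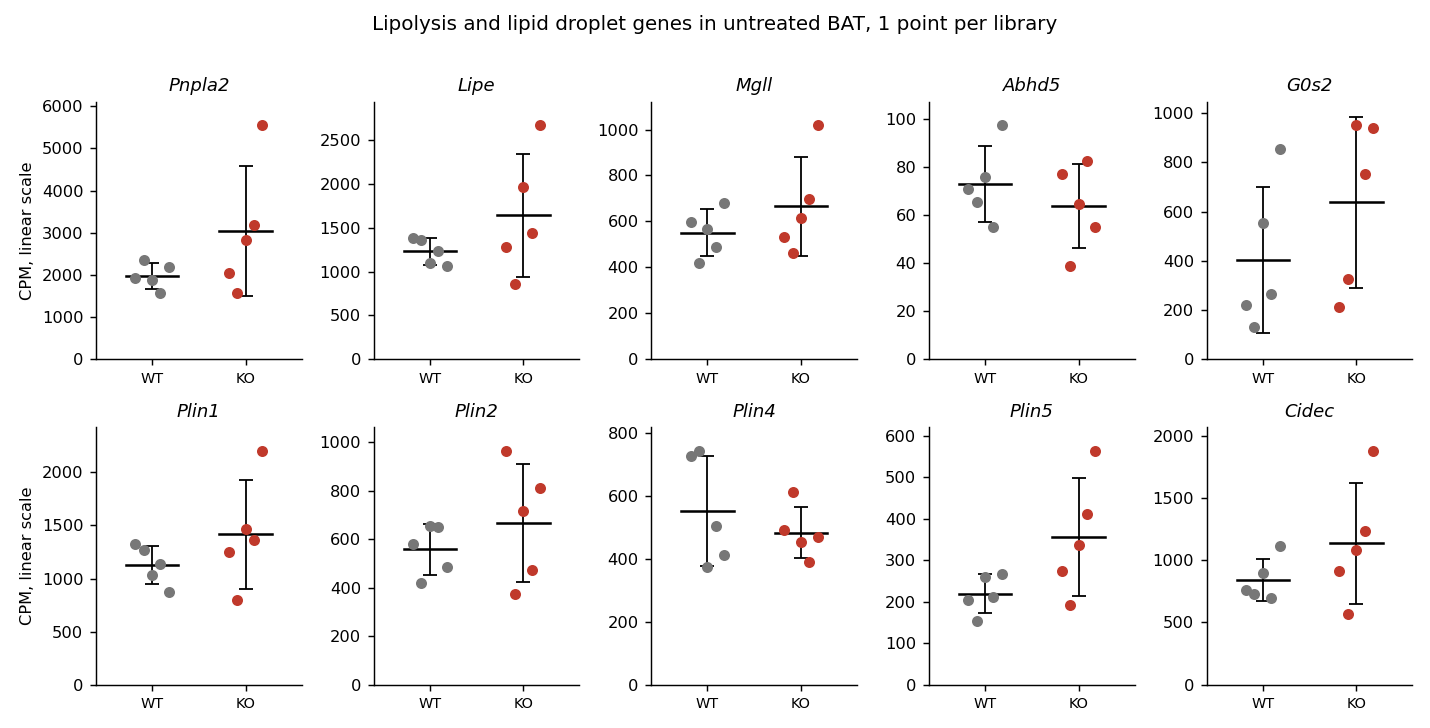
The 10 genes in untreated BAT. Points are libraries (5 WT in grey, 5 KO in red, in replicate order from left to right), lines are means and bars 1 SD, and the vertical axes are CPM from 0. The WT and KO ranges overlapped for every gene, and the highest point of *Pnpla2*, *Lipe*, *Mgll*, *Plin1*, *Plin5* and *Cidec* was KO replicate 5.

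The untreated libraries could also be set side by side by their Y-linked transcripts. *Plin5* was at 153.8 to 211.2 CPM in the 4 libraries with Y-linked transcripts and at 260.7 to 563.6 CPM in the 6 without. *Cidec* was at 568.6 to 759.9 CPM in the former and 900.3 to 1878 CPM in the latter. *Plin4* lay the other way, at 503.4 to 742.8 CPM with and 374.9 to 491.8 CPM without Y-linked transcripts. For these 3 genes the 2 sets of libraries did not overlap, whereas for the other 7 they did. Of all genes tested, 2.73% were higher and 3.08% lower without overlap in the libraries that lacked Y-linked transcripts, beside 2 and 1 of the 10. Of the 6 libraries without Y-linked transcripts 4 were KO and 2 were WT. Their part in the differences between KO and WT was tested only by the covariate. Under it the median log2FC of the 10 was 0.18 against 0.03 for all genes, and edgeR FDR values were at least 0.576. In this fit 9 of 10 log2FC were above 0, with *Plin2*, *Mgll*, *Plin4* and *Cidec* at only 0.06 to 0.1. The share of all genes above 0 was not computed for it.

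Summed over the 10 genes, the level was 2131 to 3161 RPKM among WT and 1919 to 5651 RPKM among KO libraries. Brown adipocyte markers summed to 2972 to 7344 and 3276 to 10770 RPKM in these groups, with 0 of 10 at 0, and their part was not tested. The lowest sum was that of KO replicate 2, which held the most muscle transcripts. The highest was that of KO replicate 5, which held 495.7 RPKM of muscle markers. These sums depend on the scaling, whose factor was 1.473 for KO replicate 2 and 0.83 to 1.07 among WT libraries. In unscaled counts the 10 genes took 0.853% of KO replicate 2, against 0.667% to 0.755% of WT libraries. Such shares were not computed for other genes. Without the 4 libraries over 100 RPKM of muscle markers, an alternative chosen after seeing the data, 9 of 10 log2FC were above 0, the median was 0.35 against -0.11 for all genes, and edgeR called 0 genes. In whole tissue, fewer adipocytes in a sample and less of a message per adipocyte cannot be told apart.

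**Figure D3:**
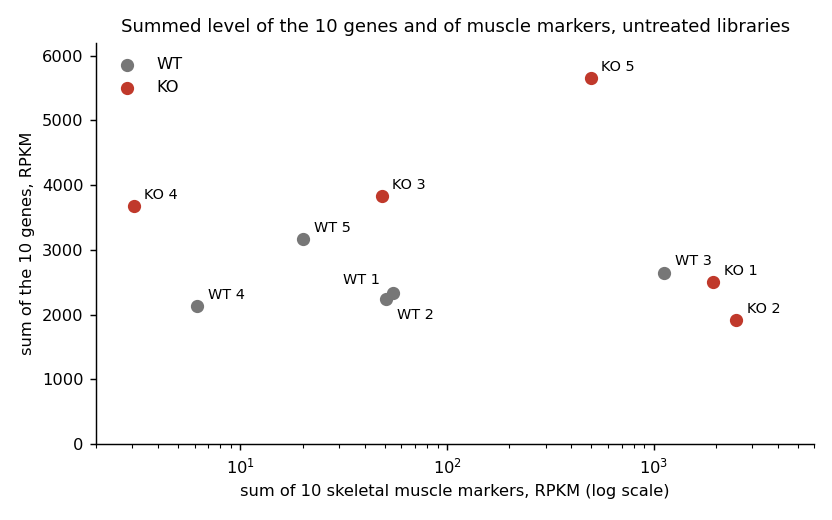
Summed level of the 10 genes (vertical axis, RPKM from 0) against the summed level of 10 skeletal muscle markers (horizontal axis, RPKM, log scale) in the 10 untreated libraries, WT in grey and KO in red. On these scaled values KO replicate 5 (5651 RPKM) stood above and KO replicate 2 (1919 RPKM) below all other libraries.

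In KO + AAV-GFP against WT + AAV-GFP, none of the 10 genes passed an FDR of 0.05 in edgeR (0.00529% of all genes higher, 0.0476% lower) or in DESeq2, and 1 had an unadjusted p under 0.05 in edgeR, against 4.2% of all genes on the lower and 4.98% on the higher side. That gene was *Pnpla2*, at 2042, 2138 and 2227 CPM in WT + AAV-GFP and at 1978, 1811 and 1598 CPM in KO + AAV-GFP. All KO libraries lay below all WT libraries, as for 6.88% of all genes (0 of the 10 were higher without overlap, against 6.51%), and the log2FC was -0.25 ± 0.10 (edgeR unadjusted p 0.0329, FDR 0.501, n = 3 per group). Without replicate 2 or 3 of either group, 0 of the 10 genes had an unadjusted p under 0.05 in edgeR. The same held when only these 2 groups were fitted. Apart from *Pnpla2*, the other 9 log2FC lay between -0.15 and 0.09, and *Lipe* and *Plin5* differed by 0.01 at most in size. At an unadjusted p of 0.05 in edgeR, 4 of 10 brown adipocyte markers were lower. By the same rule 5 of 6 macrophage and 7 of 8 tested skeletal muscle markers were higher. The muscle markers summed to 32.39, 0.4108 and 0.7894 RPKM in replicates 1 to 3 of KO + AAV-GFP. The part of these cell types was not tested.

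The comparison of KO and WT under AAV-PRDM16 had the lowest median of the 4 comparisons between 2 groups that share a virus or a genotype. By edgeR none of the 10 genes passed an FDR of 0.05 (0.0423% of all genes higher, 0.00529% lower). The log2FC (KO over WT) was below 0 for 8 of the 10 genes against 48.5% of all genes, with a median of -0.28 against 0.01. All KO libraries lay below all WT libraries for 6 genes, *Pnpla2*, *Lipe*, *Mgll*, *Plin1*, *Plin2* and *Plin5*, against 11.2% of all genes. *Plin2*, *Mgll*, *Plin1* and *Plin5* had an unadjusted p under 0.05, against 6.8% of all genes on the lower side, and 0 on the higher side, against 6.92%. DESeq2 called 3 of them at an FDR of 0.05, *Plin2* (FDR 0.000761), *Plin1* (FDR 0.0142) and *Mgll* (FDR 0.0197), and it called 626 of all genes where edgeR called 9.

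*Plin2* was at 763.6, 656.6 and 669.4 CPM in WT + AAV-PRDM16 and at 463.6, 466.3 and 426.3 CPM in KO + AAV-PRDM16. The groups were far apart relative to the spread within either, and the log2FC was -0.62 ± 0.13 (edgeR unadjusted p 0.000357, FDR 0.0912, n = 3 per group). When replicate 3 of KO + AAV-GFP, which shares the fit, was left out, the edgeR FDR was 0.0452.

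*Mgll* was at 817.3, 632.8 and 552.2 CPM in WT + AAV-PRDM16 and at 517.5, 453.7 and 403.4 CPM in KO + AAV-PRDM16, a log2FC of -0.54 ± 0.15 (edgeR unadjusted p 0.00295, FDR 0.154). *Plin1* was at 1503, 1439 and 1352 CPM and at 1168, 1127 and 1168 CPM, a log2FC of -0.31 ± 0.10 (edgeR unadjusted p 0.00684, FDR 0.195). For *Mgll* the lowest WT library, at 552.2 CPM, was near the highest KO library, at 517.5 CPM, whereas for *Plin1* the groups were further apart than either was wide.

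*Plin5* was at 249.3, 217.2 and 251.4 CPM in WT and 192.4, 197.8 and 208.5 CPM in KO, a log2FC of -0.26 ± 0.11 (edgeR FDR 0.329). *Pnpla2* was at 2364, 2218 and 2208 CPM against 1948, 2079 and 1970 CPM (-0.18 ± 0.10, edgeR FDR 0.485), and *Lipe* at 1367, 1543 and 1506 CPM against 1287, 1366 and 1332 CPM (-0.15 ± 0.11, edgeR FDR 0.578). None of these 3 overlapped between the groups, although for *Lipe* the nearest libraries were at 1367 CPM in WT and 1366 CPM in KO.

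The remaining 4 genes overlapped between the groups. *Cidec* was at 1257, 834.6 and 844.8 CPM against 615.4, 687.3 and 883.6 CPM (log2FC -0.43 ± 0.20, edgeR FDR 0.383). *Abhd5* was at 74 to 107.3 CPM against 54.83 to 83.75 CPM (-0.30 ± 0.21, edgeR FDR 0.567), and the ATGL inhibitor *G0s2* at 126.6 to 227.6 CPM against 171.1 to 208.4 CPM (0.11 ± 0.29, edgeR FDR 0.914). *Plin4* was at 618.1 to 831.2 CPM against 780.5 to 797.4 CPM (0.10 ± 0.13, edgeR FDR 0.796), and for both *G0s2* and *Plin4* the difference was smaller than its SE.

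The summed level of the brown adipocyte markers was 3573 to 4658 RPKM in WT + AAV-PRDM16 and 2540 to 3128 RPKM in KO + AAV-PRDM16, with 0 of 10 markers at 0 counts. Of these 10, 6 had an unadjusted p under 0.05 on the lower side in edgeR, against 6.8% of all genes, and 0 passed the FDR. The 6 markers shared by all adipocytes summed to 2453 to 2850 and 2482 to 2784 RPKM, and the 6 macrophage markers to 4.775 to 5.651 and 7.396 to 9.884 RPKM. The 5 endothelial markers summed to 65.46 to 73.95 and 77.58 to 101.5 RPKM. At an unadjusted p of 0.05 in edgeR, 4 of the 6 macrophage and 3 of the 5 endothelial markers were higher, against 6.92% of all genes. By the same rule 0 of the 6 markers of all adipocytes differed, and 0 of these 3 lists passed the FDR. The part of these cell types in the differences was not tested.

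In WT + AAV-PRDM16 against WT + AAV-GFP, edgeR called 0 of the 10 genes at an FDR of 0.05 (0% of all genes in either direction), and DESeq2 called 0. *Plin2* and *Mgll* had an unadjusted p under 0.05 on the higher side, against 2.1% of all genes (5.19% lower), and in both all WT + AAV-PRDM16 libraries lay above all WT + AAV-GFP libraries, against 6.39% of all genes (7.76% lower). *Plin2* was at 498.7, 518 and 528.5 CPM in WT + AAV-GFP (log2FC of PRDM16 over GFP 0.44 ± 0.13, edgeR FDR 0.459), and *Mgll* at 445.9, 527.3 and 491.5 CPM (0.45 ± 0.15, edgeR FDR 0.501). The log2FC was above 0 for 8 of the 10, against 47.9% of all genes, with a median of 0.18 against -0.01. Without replicate 1 of WT + AAV-PRDM16, 1 gene had an unadjusted p under 0.05, and without replicate 2 of WT + AAV-GFP 4 had. The median was 0.11 without replicate 1 and 0.31 without replicate 2 of WT + AAV-GFP. At an unadjusted p of 0.05, 5 of 6 T cell markers (summed 0.318 to 0.4893 RPKM in WT + AAV-PRDM16 and 0.5166 to 6.7 in WT + AAV-GFP) and 3 of 6 macrophage markers (4.775 to 5.651 and 5.162 to 10.43 RPKM) were lower in edgeR. Of the brown adipocyte markers 1 of 10 was higher (3573 to 4658 and 2533 to 3858 RPKM), and the part of these cell types was not tested.

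KO + AAV-PRDM16 against KO + AAV-GFP gave 0 of the 10 genes at an FDR of 0.05 in edgeR (0% of all genes) and 0 in DESeq2, 0 at an unadjusted p of 0.05 (1.31% of all genes higher, 5.1% lower), 0 without overlap (3.38% higher, 6.05% lower) and 5 log2FC above 0 (48.5% of all genes). The widest difference was that of *Plin2*, at 557.9, 589 and 417 CPM in KO + AAV-GFP (log2FC -0.21 ± 0.13, edgeR FDR 1.0), and *Mgll*, at 472, 469.8 and 424.6 CPM, differed by 0.01 ± 0.15.

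**Figure D4:**
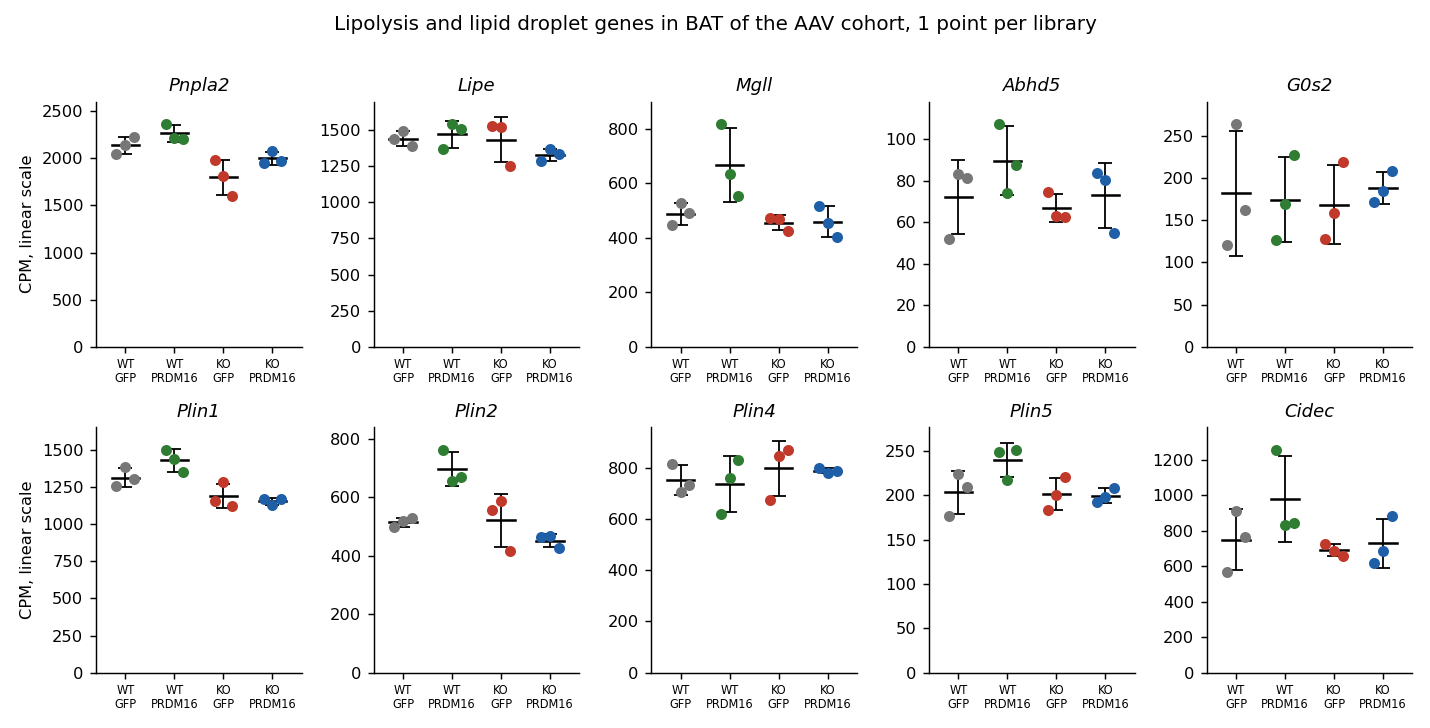
The 10 genes in the AAV cohort. Points are libraries (3 per group), lines are means and bars 1 SD, and the vertical axes are CPM from 0. For *Plin2* and *Mgll* the 3 WT + AAV-PRDM16 points, from 656.6 and 552.2 CPM upward, lay above the 3 of WT + AAV-GFP. Of all genes 6.39% were higher without overlap in this comparison.

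The difference between the 2 genotypes in their response to virus was tested as an interaction. *Plin2* had an interaction of -0.64 ± 0.18 on the log2 scale (edgeR unadjusted p 0.00380, FDR 1.0), the 1 gene of 10 with an unadjusted p under 0.05, against 1.6% of all genes on the lower side. *Mgll* followed at -0.44 ± 0.21 (edgeR unadjusted p 0.0531, FDR 1.0). No gene of the 18899 passed an FDR of 0.05 for the interaction in edgeR, and 1 did in DESeq2, so the response to the virus was not shown to differ between the genotypes for any of the 10.

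Averaged over both viruses, 9 of the 10 genes had a log2FC (KO over WT) below 0, against 48.4% of all genes, with a median of -0.21 against 0.01. *Plin1* (-0.23 ± 0.07, FDR 0.0951), *Plin2* (-0.30 ± 0.09, FDR 0.0951), *Mgll* (-0.32 ± 0.10, FDR 0.116) and *Pnpla2* (-0.21 ± 0.07, FDR 0.140) had an unadjusted p under 0.05 in edgeR, against 8.76% of all genes on the lower side (9.54% higher, 0 of the 10), and without replicate 1 of WT + AAV-GFP 7 had. None of the 10 passed an FDR of 0.05 in edgeR, which 1.06% of all genes did on the higher and 1.12% on the lower side. DESeq2 called all 4, with FDR values of 0.00461, 0.0240, 0.0300 and 0.0387 for *Plin1*, *Plin2*, *Pnpla2* and *Mgll*, among 1584 of all genes against 412 in edgeR. These averages joined unlike values. Under AAV-GFP the log2FC of *Plin2* was 0.02 and that of *Mgll* -0.10, against -0.62 and -0.54 under AAV-PRDM16. For *Plin1* they were -0.15 and -0.31, and for *Pnpla2* -0.25 and -0.18. *G0s2* had a mean of 178.2 CPM in both genotypes. Its log2FC was -0.001 ± 0.20 in edgeR and 0.005 in DESeq2. In this comparison 3 of 10 brown adipocyte markers fell and 3 of 6 macrophage markers rose at an FDR of 0.05 in edgeR, and their part in the differences was not tested.

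The virus averaged over both genotypes left 1 gene with an unadjusted p under 0.05 in edgeR, *Mgll* (log2FC 0.23 ± 0.10, FDR 0.528), against 2.07% of all genes on the higher side, and 0 at the FDR in edgeR (0% higher, 0.037% lower) or DESeq2. KO + AAV-PRDM16 set against WT + AAV-GFP gave 0 genes at the FDR (0% higher, 0.00529% lower) in edgeR and DESeq2 and 0 at an unadjusted p of 0.05 in edgeR (3.5% higher, 4.42% lower), with *Lipe*, *Plin1* and *Plin2* lower in all KO libraries, against 7.09% of all genes (6.15% higher), and 7 log2FC below 0, against 52.6%. The log2FC of the 3 genes were -0.12, -0.19 and -0.19. The comparisons of the AAV cohort share libraries, so their values are not independent of each other.

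**Figure D5:**
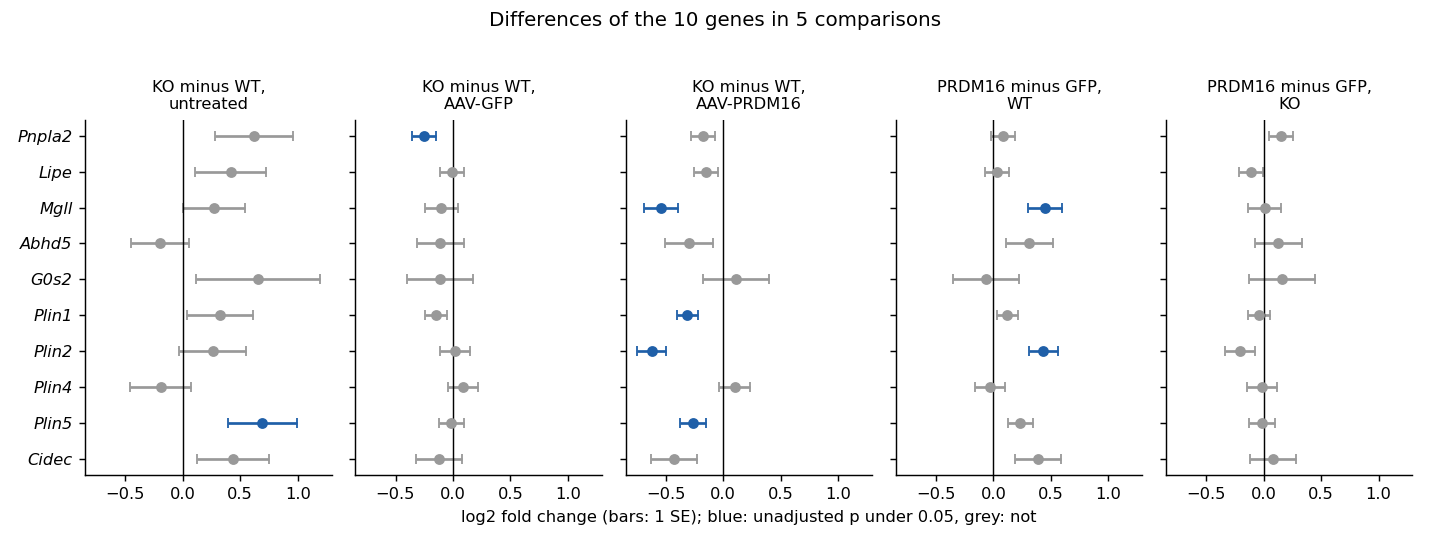
Differences of the 10 genes in 5 comparisons. Points are the log2FC of the edgeR model and bars 1 SE, with blue for an unadjusted p under 0.05 and grey for the rest. The points of the untreated comparison have bars of 0.25 to 0.54, those of the AAV cohort of 0.10 to 0.29, and 0 of the 50 points passed an FDR of 0.05.

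The balance between the members was tested by 3 ratios of level per length, each in the untreated cohort and for genotype and virus in the AAV cohort, with two-sided exact permutation tests adjusted over the 9. The ratio of the inhibitor *G0s2* to *Pnpla2* ran from 0.195 to 1.35 among untreated WT and 0.363 to 1.17 among untreated KO libraries (difference of mean log2 ratios 0.25, exact permutation p = 0.667, adjusted 0.857). The ratio of the activator *Abhd5* to *Pnpla2* was 0.0142 to 0.0225 among WT and 0.005 to 0.0192 among KO libraries. Its mean log2 value was -5.75 ± 0.25 (SD, n = 5) in WT and -6.47 ± 0.71 in KO, a difference of -0.71 (exact permutation p = 0.0317, adjusted 0.286). KO replicate 5 had the lowest ratio of all 22 libraries, and without it the difference was -0.42.

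The ratio of *Plin5* to *Plin1*, a pair of perilipins whose proteins both bind that of *Abhd5*, ran from 0.270 to 0.681 in WT and 0.489 to 0.672 in KO (difference 0.36 in log2, exact permutation p = 0.214, adjusted 0.639). In the AAV cohort the 6 differences of the 3 ratios lay between -0.04 and 0.25 and had adjusted exact permutation p-values of 0.639 to 0.905. None of the 9 tests passed after adjustment.

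Genes with the most similar profile were found by Pearson's r of log2 CPM over the 12 AAV libraries, which share scaling, depth and group structure, and the values are descriptions. *Plin2* ran closest to *Agpat2* (r = 0.948), which makes phosphatidic acid on the way to triglyceride, then *Npnt* (0.937) and *Gja1* (0.928). *Mgll* ran closest to *Phospho1* (0.946), *Bsg* (0.944) and *Ephx2* (0.944), and *Plin1* to *Dhrs4* (0.957), *Etfdh* (0.938) and *Slc25a39* (0.934). *Pnpla2* ran closest to *Ift52* (0.947) and *Lipe* to *Acot11* (0.948). *G0s2* had the weakest best match, *Fibin* (0.871). *Mgll* was among the 50 genes most like *Plin2*, and no other of the 10 had another of them among its 50.

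The rest of the pathway was read from 5 further lists of genes. In KO against WT under AAV-PRDM16, 8 of 14 triglyceride synthesis genes had an unadjusted p under 0.05 on the lower side and 2 on the higher side, with 0 at the FDR in edgeR and a median log2FC of -0.31. *Agpat2* (mean 409 against 719.8 CPM, log2FC -0.82 ± 0.16, edgeR FDR 0.0909) and *Pck1*, of glyceroneogenesis (2958 against 4033 CPM, -0.45 ± 0.12, edgeR FDR 0.159), lay below WT in every library, and *Dgat2*, which adds the last fatty acid, had a log2FC of 0.00 ± 0.21. Of 16 other droplet genes tested 3 were lower at an unadjusted p of 0.05, of 13 other lipases and carriers of fatty acids 4, of 21 genes of adrenergic and insulin control 4 with 1 higher, and of 14 transcription factors 1 with 2 higher, all with 0 at the FDR. Of all genes 6.8% were lower and 6.92% higher by the same rule.

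Averaged over both viruses, 4 genes of these lists passed an FDR of 0.05 in edgeR, 2 of them lower and 2 higher. *Cidea*, a droplet protein of the same family as *Cidec*, was at a mean of 1155 CPM in KO and 1520 CPM in WT (log2FC -0.39 ± 0.08, FDR 0.0378) and *Abhd6*, a monoglyceride lipase, at 23.19 and 33.87 CPM (-0.54 ± 0.11, FDR 0.0311), so both fell. The phosphatidate phosphatases *Lpin3* (7.45 against 3.296 CPM, 1.18 ± 0.21, FDR 0.0200) and *Lpin1* (643.1 against 410.4 CPM, 0.65 ± 0.15, FDR 0.0475) rose. Among the genes highest per length, *Fabp4*, which carries fatty acids in the cytoplasm, had a log2FC of -0.12 ± 0.07 (FDR 0.387), and *Gnas*, the stimulatory G protein of the adrenergic receptors, -0.39 ± 0.17 (FDR 0.252).

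In untreated BAT 0 genes of the 5 lists passed the FDR in edgeR or, like all other genes, in DESeq2. At an unadjusted p of 0.05, 4 of 13 other lipases and carriers and 4 of 21 control genes were on the lower side, with 1 of 14 triglyceride synthesis genes and 1 of 14 transcription factors, against 10.9% of all genes. On the higher side were 1 control gene, 1 triglyceride synthesis gene and 1 transcription factor, against 4.99%. *Prkar2b*, a regulatory subunit of protein kinase A, was at a mean of 515.8 CPM in KO and 1039 CPM in WT (log2FC -1.01 ± 0.31, edgeR FDR 0.305), and *Cidea* at 2072 and 1720 CPM (0.27 ± 0.33, edgeR FDR 0.662).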

How the data were processed

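BAT mRNA libraries, 22 in all, were grouped by the sample labels. The authors deposited, for each cohort, whole-number counts per Ensembl gene without normalization. The submitters' processing notes name bcl2fastq 2.20, Trimmomatic 0.36, HISAT2 and GRCm38.p6, and the methods name the SureSelect XT HS2 mRNA kit. The counting tool, annotation, strand setting and handling of duplicates are not given in the sources used here. GENCODE M21 gave symbols for 55227 of 55487 identifiers, and lengths as merged exons.

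In R 4.3.3, genes were kept by filterByExpr, scaled by TMM and compared by the two-sided quasi-likelihood test of edgeR 4.0.16, with Benjamini-Hochberg adjustment over all genes tested. CPM and RPKM are relative to TMM-scaled totals, and log2 CPM used a prior count of 2. The untreated fit held 10 libraries and the AAV fit 12, with 8 contrasts. Ratios were compared by exact permutation tests (smallest p 0.0079 untreated, 0.005 in the AAV cohort) in Python 3.11.15 with numpy 2.4.6. The fit was also run on simulated counts with changes of set size, and the share of these recovered is not given here. Libraries of 1 group differed by more than counting noise (median chi-square of at least 5.06 over genes), so none was counted as a repeat.

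The 10 genes and all lists were chosen with earlier results of these data known. All 10 are named. Of the other lists, genes are named per comparison by the smallest FDR among those at 0.05 (up to 4), otherwise from the 3 highest per length, with 3 genes of similar profile per member. Alternatives were DESeq2 1.42.0, RLE scaling, no count filter, the replicate number as block, removal of mitochondrial genes, each library left out, WT replicates 1 and 2 left out, Y-linked transcripts (over 10 CPM together) as covariate, only the 2 groups compared, and 4 libraries with muscle markers left out, the last chosen after seeing the data.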

Additional observations from a re-analysis of the deposited data

How the results depend on the processing

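Across all alternatives, 740 of the values kept their direction and their side of the threshold (for counts, stayed within 1.5 times), and 23 did not. None was called in the main fit, so keeping the side meant staying uncalled. Single genes of the AAV cohort entered only with an unadjusted p under 0.05 or without overlap. In KO against WT under AAV-GFP, 2 of the 10 log2FC were above 0 (median -0.11). Without replicate 2 of WT + AAV-GFP 7 were (median 0.02). Every comparison had 0 of the 10 genes at an FDR of 0.05 by edgeR. DESeq2 called 3 in KO against WT under AAV-PRDM16 and 4 in the genotype averaged over viruses, and the cause was not tested. With each library left out in turn, edgeR called 0 to 1 genes in the former (1 without replicate 3 of KO + AAV-GFP) and 0 in the other 8 comparisons. *Plin4* in untreated BAT turned to a log2FC of 0.23 without WT replicates 1 and 2 and to 0.0916 with Y-linked transcripts as a term, and *Abhd5* to 0.0184 without the libraries that held muscle markers, chosen after seeing the data. No cause of these turns was tested.

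The log2 ratio of *G0s2* to *Pnpla2*, which never passed its test, differed between untreated KO and WT by -0.14 to 0.56 with single libraries left out (below 0 without WT replicate 2) and by -0.45 without WT replicates 1 and 2. Between the viruses it differed by -0.17 to 0.11, above 0 without replicate 3 of KO + AAV-GFP (0.11), replicate 2 of WT + AAV-GFP (0.11) or replicate 1 of WT + AAV-PRDM16 (0.08). The ratio of *Abhd5* to *Pnpla2* differed between genotypes of the AAV cohort by -0.0732 to 0.1142, below 0 without replicate 1 (-0.04) or 2 (-0.0037) of KO + AAV-PRDM16, replicate 1 of WT + AAV-GFP (-0.0732) or replicate 2 of WT + AAV-PRDM16 (-0.04).

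Replicate numbers showed no pairing of the libraries. Deviations of libraries with the same number correlated at -0.292 to 0.111 in the untreated and -0.091 to 0.154 in the AAV cohort. Those of libraries with different numbers correlated at -0.357 to 0.293 and -0.232 to 0.211. Pairing by litter was not examined. A fit with the replicate block called 0 of the 10 genes in every comparison. With at least 55320927 counts a library and 38.78 CPM for every member, counting error was small beside the spread between the 3 to 5 libraries of a group.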
